A study of Homo sapiens with 6 samples.

Results

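Chemokines, interleukins and their receptors were examined as a gene group in MO3.13 cells with and without exposure to Klotho. The members were found by symbol: CCL, CXCL, CCR or CXCR followed by digits, or IL followed by digits with optional letters and a receptor or subunit number, without pseudogenes. The symbol rule uses no measured value, but a gene with several probe sets of its own was represented by the one with the highest mean over the 6 arrays. Of 143 protein-coding genes in RefSeq whose symbols met the rule, 112 had a probe set annotated with that gene alone, among 14232 such genes on the array. The other 31 are not reported: 19 of them, CXCL1, CXCR1, CXCR2, IL10RB, IL17RA, IL2RG and CCL4 included, lay on probe sets shared with another symbol, and 12, CCL3 and IL33 included, were on none of the annotated probe sets. The 112 members comprised 31 chemokines, 11 chemokine receptors, 37 interleukins and 33 interleukin receptor chains. IL18BP, the gene of a binding protein, is counted among the interleukins and the ligands.

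Chemokines are small secreted proteins that direct cell migration through G protein-coupled receptors, and they are named after the spacing of their first cysteines (CC or CXC). Interleukins act through receptors of several classes: the IL-1 and IL-17 receptor families signal mainly to NF-kappaB, whereas the receptors of the IL-6, IL-2 and IL-10 families signal through JAK kinases and STAT factors. Many of the ligand genes are silent in resting cells and transcribed within hours of an inflammatory stimulus, and in the brain they are known chiefly from microglia, astrocytes and injured tissue. CXC chemokines and IL-6 family cytokines have also been studied for their effects on oligodendrocyte precursors.

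MO3.13 is a human glial line that the labels call an oligodendroglioma line, and in the literature it is known as a fusion of oligodendrocytes with rhabdomyosarcoma cells. The control group consisted of 3 arrays of cells whose culture is given as medium containing fetal bovine serum at 10%. The treated group consisted of 3 arrays of cells given recombinant mouse Klotho at 0.4 µg/mL for 3.5 h in serum-free medium. No vehicle or serum-free control is described, so that Klotho and the absence of serum cannot be told apart, and nothing in the labels tells if separate cultures stand behind the 3 arrays of each group. The question was which transcripts of this group differ between the treated and the control cells.

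Values are log2 signals, and array medians lay between 6.36 and 6.47. A probe set's signal depends on its own probes as well as on its transcript, so levels of different genes are not ranked as amounts of RNA. As a guide to signal near background, 225 olfactory receptor genes, which are not thought to be transcribed outside a few tissues, were used: the 95th percentile of their means was 5.09, and signal up to that level is here called the silent range. The median over all genes was 6.59, and 74.1% of them lay above this range. Lying above it therefore does not by itself mark a cell type. Of the labelled cell type's markers, 8 of 9 measured oligodendrocyte lineage genes lay above this range (SOX10 at 5.98, OLIG2 at 5.46, MBP at 5.27, CNP at 8.82), and MOG, at 4.59, lay in it. Of 9 skeletal muscle markers, 8 lay above it, among them CHRNA1 (11.67) and MYOD1 (9.68). DES differed by -0.27 (unadjusted p = 0.019, adjusted p = 0.998 in limma). It was the only 1 of these 9 with an unadjusted p under 0.05, beside 2.07% of all genes. Of 17 leukocyte and microglia markers, 7 lay above the silent range: CD68 (8.27), NKG7 (6.54), TMEM119 (6.11), SPI1 (5.97), CD8A (5.85), CD14 (5.40) and MS4A1 (5.36). The other 10, among them PTPRC (2.53), LYZ (2.54), P2RY12 (2.89), AIF1 (3.39) and CD3E (3.50), lay in it. No leukocyte or endothelial marker had an unadjusted p under 0.05 in limma.

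A minority of the group gave signal above the silent range. Such signal was seen for 44 of the 112 members (39.3%), against 74.1% of all genes, and 58 members were below 4.70, the first quartile over the whole array, against 20.5% of all genes. By class, 10 of 31 chemokines, 4 of 11 chemokine receptors, 14 of 37 interleukins and 16 of 33 interleukin receptor chains exceeded it. The 20 members with the highest mean signal comprised the chemokine genes CXCL5, CXCL8, CCL2 and CCL5, the interleukin genes IL17D, IL11 and IL32, and 13 receptor genes. In the plot of their values by array, the control and treated arrays interleaved for most genes.

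**Figure D1:**
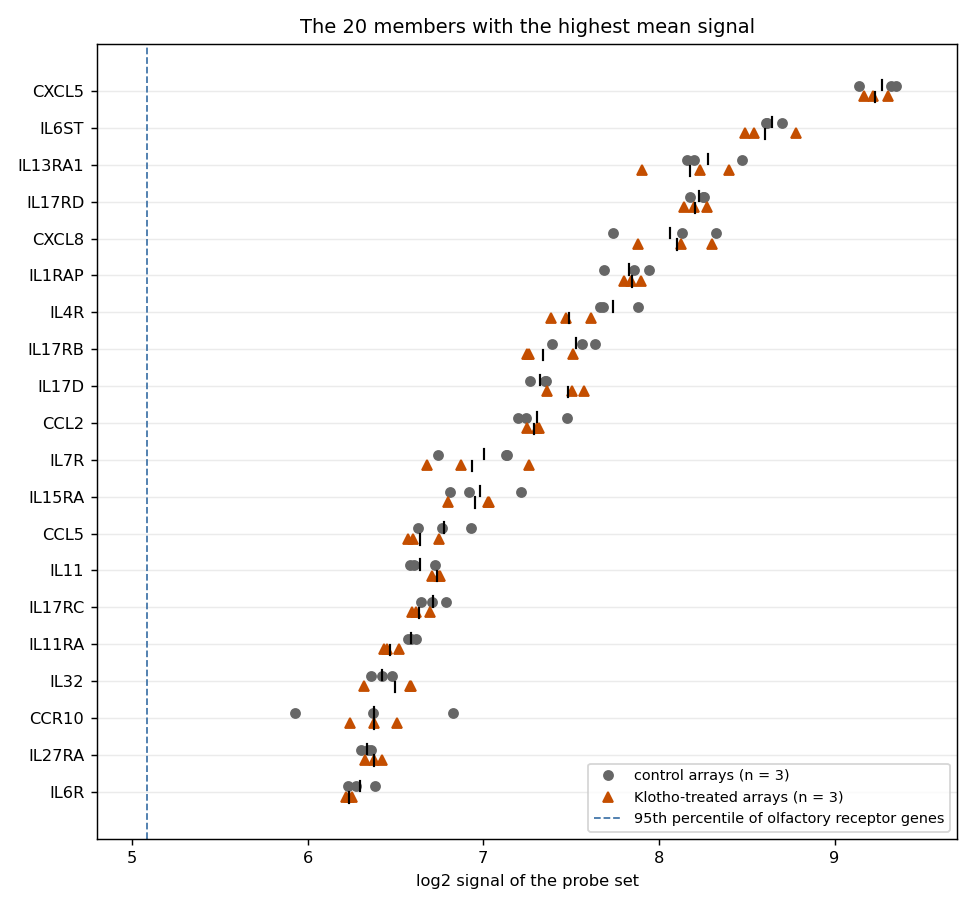
Log2 signal (x axis) of the 20 members with the highest mean over 6 arrays (y axis), with each array as a point (circles, 3 control arrays; triangles, 3 Klotho-treated arrays), black ticks at the group means and a dashed line at 5.09, the end of the silent range. The groups do not overlap for IL4R and IL11RA, lower on the treated arrays, and for IL17D, higher on the treated arrays.

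None of the 112 members differed between treated and control cells past the threshold of limma's test adjusted over all probe sets (Benjamini-Hochberg adjusted p under 0.05). The smallest adjusted p among them was 0.998, and 0% of all 22011 probe sets and 0% of all genes passed. At an unadjusted p under 0.05 there were 2 members: IL18, higher (0.963% of all genes were called in that direction), and IL4R, lower (1.11% of all genes). Together that is 2 of 112, against 2.07% of all genes in either direction. The 3 treated values lay above the 3 control values for 4 members (IL18, IL13, IL17D and IL36RN; 2.59% of all genes) and below them for 2 (IL4R and IL11RA; 5.3% of all genes), against 7.89% of all genes in either direction.

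The arrays bounded most of the differences closely, in the deposited values and by the spread between arrays, which may be technical. The 95% interval excluded changes of 1.5-fold or more, up or down, for 99 of the 112 members (91.7% of all genes), and changes of 2-fold or more for 111 of them (98.7% of all genes). All 44 members above the silent range had intervals inside 1.5-fold, as had 94.5% of all genes in that range of signal. CXCL2 was the member whose interval extended past 2-fold. For members in the silent range a bound on signal need not bound the transcript. The median standard error was 0.11 on the log2 scale for the members and for all genes.

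As deposited, 61 members were higher and 51 lower in treated cells (54.5% higher, against 37.4% of all genes), with a median difference of 0.02 against -0.03. With each array centred on its median, 72.3% of the members and 57.3% of all genes were higher. Without control array 1 the shares were 47.3% and 47%, so that the members and all genes did not stand apart in that fit. With any other single array left out, the share of the members stayed above that of all genes. It ranged from 49.1% against 37.9% (without treated array 2) to 61.6% against 37.9% (without treated array 3). The shares as deposited differed with the level of signal. Of the 68 members in the silent range 66.2% were higher, with a median of 0.05, beside 58.2% and 0.02 for all genes in that range and 60.4% and 0.05 for the olfactory receptor genes. Of the 44 members above it 36.4% were higher, with a median of -0.03, beside 30.1% and -0.05 for all genes there.

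**Figure D2:**
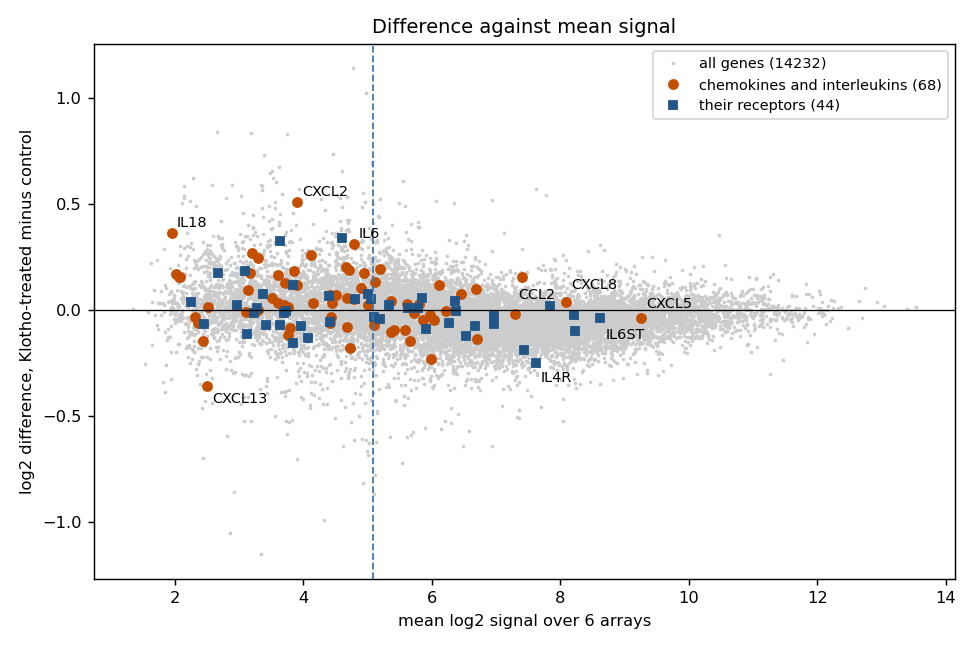
Log2 difference of each gene, treated minus control (y axis), against its mean log2 signal over 6 arrays (x axis), for all 14232 genes (grey) and for the 68 ligands (circles) and 44 receptors (squares) of the group, with the end of the silent range dashed. CXCL2 (0.51), IL18 (0.36) and CXCL13 (-0.36), the members farthest from 0, lie in the silent range.

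The ELR-type CXC chemokines attract neutrophils through CXCR1 and CXCR2, and their genes lie together on chromosome 4 in the order CXCL8, CXCL6, CXCL1, CXCL5, CXCL3, CXCL2, with platelet chemokine genes between CXCL6 and CXCL5. NF-kappaB is known to drive several of them. To show what these neighbouring genes share, the 120 bases before the RefSeq start of the 5 measured genes are shown, with those of IL6, a known NF-kappaB target discussed below. They were read from RefSeq (GRCh38.p14) 5′ to 3′ on the gene's strand, and capitals mark matches to GGNNTTTCC, a kappaB-like motif searched on both strands.
CXCL8 (chr4:73740449-73740568, plus strand): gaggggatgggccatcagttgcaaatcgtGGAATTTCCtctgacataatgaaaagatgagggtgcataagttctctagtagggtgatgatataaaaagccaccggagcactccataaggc
CXCL6 (chr4:73836558-73836677, plus strand): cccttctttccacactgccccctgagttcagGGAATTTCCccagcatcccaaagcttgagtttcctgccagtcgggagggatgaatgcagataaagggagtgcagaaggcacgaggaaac
CXCL5 (chr4:73998678-73998797, minus strand): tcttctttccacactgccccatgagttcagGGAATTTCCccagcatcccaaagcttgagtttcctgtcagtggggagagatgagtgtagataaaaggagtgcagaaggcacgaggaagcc
CXCL3 (chr4:74038690-74038809, minus strand): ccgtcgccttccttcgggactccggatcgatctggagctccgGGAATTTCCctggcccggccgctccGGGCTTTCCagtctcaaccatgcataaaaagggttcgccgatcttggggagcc
CXCL2 (chr4:74099196-74099315, minus strand): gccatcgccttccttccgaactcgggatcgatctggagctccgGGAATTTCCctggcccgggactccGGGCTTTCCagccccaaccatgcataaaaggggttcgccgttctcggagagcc
IL6 (chr7:22727080-22727199, plus strand): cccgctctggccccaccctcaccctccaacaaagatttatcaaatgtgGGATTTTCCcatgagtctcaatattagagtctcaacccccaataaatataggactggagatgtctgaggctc

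All 6 windows held the motif: 2 matches in CXCL2 and CXCL3 and 1 in each of the others. The windows of CXCL5 and CXCL6 were identical at 90.9% of aligned bases and those of CXCL2 and CXCL3 at 88.4%, so these matches are not independent of each other. Of the 112 members, 89 had an entry in the promoter table. In the 250 bases before the start, the kappaB-like motif was found in 15 of the 89 members (16.9%), against 5.48% of all 27305 promoters, and in 9 of 34 members above the silent range and 6 of 55 in it. The AP-1 motif TGANTCA, also searched on both strands and unable by its letters to overlap a kappaB-like match, was found in 14 of the 89 members (15.7%), against 6.6% of all promoters, and in 4 of 34 members above the silent range and 10 of 55 in it. A match is a description of the sequence and does not show that a factor binds.

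Signal from this cluster did not differ between the groups beyond the spread of the arrays. CXCL5, which encodes a neutrophil attractant, read 9.35, 9.14 and 9.32 on the control arrays and 9.31, 9.22 and 9.17 on the treated arrays, a difference of -0.04 (95% interval -0.26 to 0.18). The groups interleave. CXCL8, the gene of interleukin-8, read 8.13, 7.74 and 8.33 on the control and 7.88, 8.12 and 8.30 on the treated arrays, a difference of 0.04 (95% interval -0.40 to 0.47). Control array 2 gave its lowest value and treated array 1 the next. CXCL3 (6.22 ± 0.02 control, 6.22 ± 0.15 treated; SD, n = 3) and CXCL6, with group differences of -0.01 each, were likewise above the silent range.

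CXCL2, whose promoter window nearly matches that of CXCL3, was in the silent range and had the largest difference of the group, 0.51 (95% interval -0.39 to 1.41; unadjusted p = 0.219 in limma). It read 4.001, 2.77 and 4.19 on the control arrays and 3.99, 4.05 and 4.45 on the treated arrays. Control array 2 stood apart from the other 5 arrays, and without it the difference was 0.07. The remaining 8 CXC chemokines, which include the interferon-induced ligands of CXCR3, had differences from -0.36 to 0.19. CXCL13, a B cell attractant, gave -0.36, with values from 2.43 to 2.81 in control and from 2.02 to 2.47 in treated cells, all in the silent range. CXCL16, a membrane-bound ligand of CXCR6, was the only one of the 8 above it: 6.22, 6.18 and 5.93 against 5.71, 6.02 and 5.91, a difference of -0.23 (95% interval -0.53 to 0.06). CXCL12, the ligand of CXCR4 and a known attractant of neural and oligodendrocyte precursors, was at 4.41 ± 0.02 and 4.48 ± 0.07 (SD, n = 3), in the silent range.

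Of the 18 measured CC chemokines, which attract monocytes, lymphocytes and eosinophils, 5 lay above the silent range and 0 had an unadjusted p under 0.05. CCL2, the monocyte attractant also called MCP-1, read 7.48, 7.25 and 7.20 on the control and 7.25, 7.30 and 7.32 on the treated arrays, a difference of -0.02 (95% interval -0.25 to 0.22). CCL5, a T cell attractant, differed by -0.14 (95% interval -0.39 to 0.12). The genes next to CCL2 on chromosome 17, CCL7, CCL11, CCL8 and CCL1, were in the silent range with means of 3.18, 5.01, 3.20 and 4.95. CCL8 (0.27) and CCL25 (0.26) had the smallest p of the CC chemokines. CCL8 read 3.18, 3.10 and 2.93 in control and 3.35, 3.61 and 3.06 in treated cells, so that treated arrays 1 and 2 were above every control array and treated array 3 was not.

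Of the 11 chemokine receptors, 4 were above the silent range. Those above the silent range were CCR10 (6.38), CXCR3 (5.79), CXCR4 (5.19) and CCR7 (5.10). CXCR4, the receptor of CXCL12, read 5.35, 5.17 and 5.11 in control and 5.19, 5.32 and 4.99 in treated cells, a difference of -0.04 (95% interval -0.33 to 0.24). CCR10, the receptor of the epithelial chemokines CCL27 and CCL28, ranged from 5.93 to 6.83 over the control arrays, with a control SD of 0.45 against 0.13 in the treated group. The other receptors had means from 3.38 to 4.41. Of these, CCR4, a receptor of T helper cells, had the largest difference (0.33, 95% interval -0.16 to 0.81); CXCR5 differed by -0.16, CXCR6 by 0.08 and CCR9 by 0.07. The pair of receptors through which the ELR chemokines act had no probe set of their own, so ligand and receptor cannot be set beside each other for CXCL5 and CXCL8.

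The IL-1 family holds agonists and antagonists, and several of its receptors, but not that of IL-18, share the chain IL1RAP. Within it, IL18 had the smallest p of the whole group. IL18, a ligand that induces interferon gamma in lymphocytes, read 1.73, 1.85 and 1.73 on the control arrays and 2.21, 1.99 and 2.20 on the treated arrays. The groups did not overlap, and the difference was 0.36 (95% interval 0.14 to 0.59), a ratio of 1.29 in signal, with limma giving an unadjusted p of 0.00749 and, after adjustment, 0.998. The IL18 probe set had the lowest mean of the 112 members (1.95), far inside the silent range, where 58.2% of all genes were higher on the treated arrays. IL36RN, an antagonist of IL-36, did not overlap either, at 4.85 to 4.86 in control and 4.93 to 4.98 in treated cells, a difference of 0.10. IL36B differed by 0.25 (95% interval -0.04 to 0.53).

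The main agonists of the family were in the silent range. IL1A was at 3.76 ± 0.07 in control and 3.77 ± 0.03 in treated cells, and IL1B at 4.76 ± 0.19 and 4.82 ± 0.14 (SD, n = 3). Of the 7 measured IL-1 family receptors, only the shared chain IL1RAP exceeded the silent range. It read 7.94, 7.69 and 7.86 against 7.80, 7.84 and 7.90, a difference of 0.02 (95% interval -0.20 to 0.24). IL1R1, the signalling receptor of IL-1, was at 3.74 ± 0.16 and 3.73 ± 0.06, the decoy receptor gene IL1R2 differed by 0.05, and IL18R1, the receptor of IL-18, was at 2.49 ± 0.14 and 2.42 ± 0.10 (SD, n = 3).

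IL6, the gene of the cytokine that gave the gp130 family its name, was measured by a pair of probe sets that differed in opposite directions. The brighter one, which the rule kept, read 4.62, 4.50 and 4.77 on the control and 4.63, 5.12 and 5.08 on the treated arrays, a difference of 0.31 (95% interval -0.06 to 0.68; unadjusted p = 0.086 in limma). The dimmer one read 4.63, 4.84 and 4.92 on the control and 4.28, 4.64 and 4.55 on the treated arrays, a difference of -0.30 (95% interval -0.61 to 0.0041; unadjusted p = 0.0523 in limma). The mean of both differed by 0.0024. Both were in the silent range, and the groups overlapped for both. The probe set numbers follow the genome strand by strand: of 10988 probe sets with a single symbol and 10 neighbours in number order on the same chromosome, 94.2% had all 10 neighbours on the strand of their own gene. IL6 lies on the plus strand. The dimmer probe set had 10 of 10 neighbours on that strand, and the brighter one 0 of 10, as had 0.319% of the probe sets. Of 90 probe sets of members that could be checked, the brighter IL6 probe set was the only one with most neighbours on the opposite strand, and 1 had no majority. Which strand either probe set reads was not tested.

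**Figure D3:**
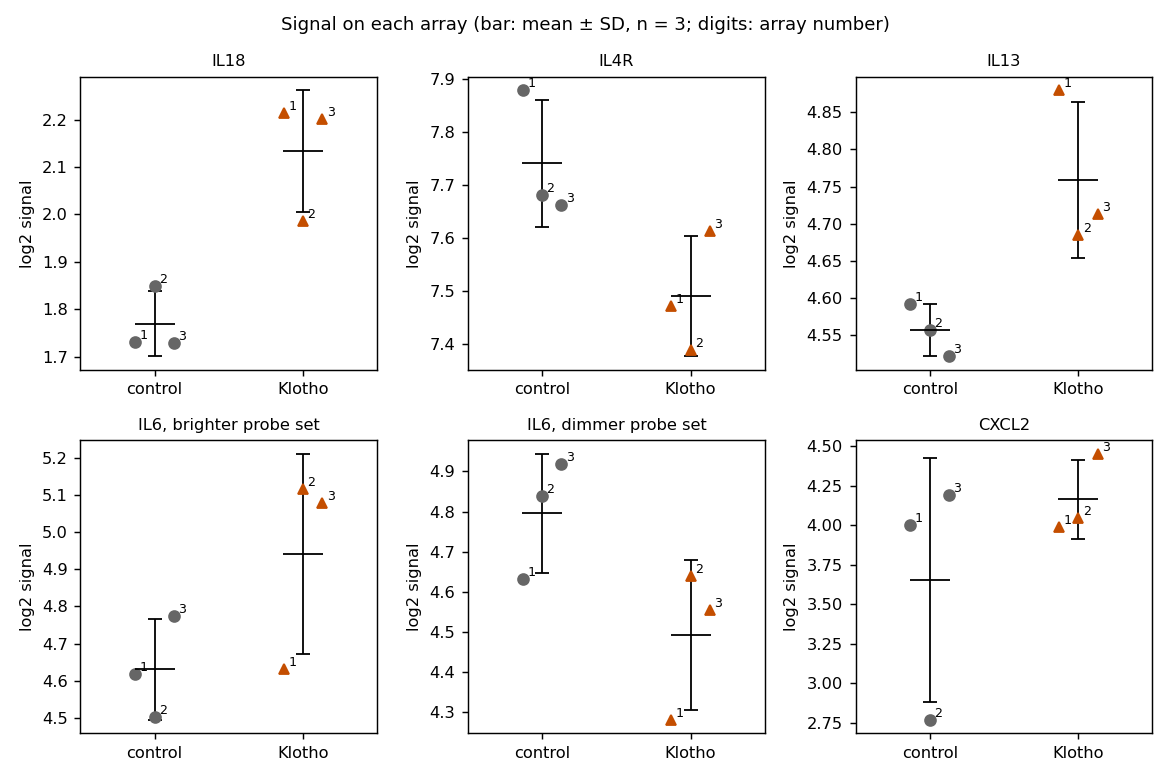
Log2 signal (y axes, each with its own range) of IL18, IL4R, IL13, CXCL2 and the pair of IL6 probe sets on the 3 control (circles) and 3 Klotho-treated arrays (triangles), with array numbers and the mean ± SD. The brighter IL6 probe set is higher on the treated arrays by 0.31 and the dimmer one lower by 0.30 on average, and the CXCL2 difference rests on control array 2 (2.77).

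Of 8 receptor chains of the IL-6 and IL-12 families, 5 were above the silent range. IL6ST, which encodes the shared signal transducer gp130, read 8.70, 8.62 and 8.61 in control and 8.49, 8.54 and 8.78 in treated cells, a difference of -0.04 (95% interval -0.28 to 0.21). IL6R, the ligand-binding chain for IL-6, was at 6.30 ± 0.08 and 6.24 ± 0.02 (SD, n = 3). IL11, a gp130 cytokine of stromal cells, differed by 0.10 (95% interval -0.09 to 0.28). Its receptor gene IL11RA read 6.59, 6.61 and 6.57 against 6.45, 6.43 and 6.52, so that all treated values lay below all control values. The difference of IL11RA was -0.12 (95% interval -0.29 to 0.05; unadjusted p = 0.138 in limma). IL27RA, the receptor chain for IL-27, differed by 0.04, and IL23R (0.19) and the itch cytokine gene IL31 (0.15) were in the silent range.

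Of the receptors that pair with the common gamma or beta chain or with each other for IL-4 and IL-13, 8 were measured. Of these, 5 were above the silent range. IL4R, the chain that IL-4 and IL-13 receptors share, read 7.88, 7.68 and 7.66 on the control arrays and 7.47, 7.39 and 7.61 on the treated arrays. Every treated value was below every control value, and the difference was -0.25 (95% interval -0.49 to -0.01; unadjusted p = 0.0459, adjusted p = 0.998 in limma). Without control array 1, the highest, it was -0.18 with an unadjusted p of 0.126 in limma, and without treated array 2, the lowest, -0.20 with 0.147. With median centring, quantile normalization and cyclic loess the difference was -0.20, -0.19 and -0.19 (unadjusted p = 0.061, 0.062 and 0.060 in limma). Of all genes above the silent range, where IL4R lay, 30.1% were higher on the treated arrays. The difference of IL4R ranged from -0.31 to -0.18 over all alternatives tried. Its partner gene IL13RA1 read 8.47, 8.20 and 8.16 against 7.91, 8.23 and 8.40, a difference of -0.10 with overlapping groups, and the decoy IL13RA2 was in the silent range at 2.23 ± 0.12 and 2.27 ± 0.11 (SD, n = 3). IL13, a ligand of these receptors, was in the silent range too. It read 4.59, 4.56 and 4.52 against 4.88, 4.68 and 4.71, a difference of 0.20 without overlap (unadjusted p = 0.0522 in limma).

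IL7R, the receptor chain of IL-7, differed by -0.06 and IL15RA, which presents IL-15, by -0.03. Of their ligand genes, IL7 differed by -0.18 (95% interval -0.42 to 0.06), in the band of signal just below the end of the silent range, and IL15 by -0.15 (95% interval -0.43 to 0.14), above it. IL2RA, the inducible chain of the IL-2 receptor, was in the silent range, at 4.44, 4.16 and 4.71 against 4.58, 5.02 and 4.73, a difference of 0.34 (95% interval -0.08 to 0.76). The measured part of the IL-10 family, 5 ligands and 5 receptor chains, was in the silent range, with means between 2.08 and 5.01. The receptor chain gene IL10RB and the ligand gene IL24 share probe sets with other symbols, so their signal is unknown here. The ligand genes IL26 and IL10 differed by 0.15 and 0.12, the soluble receptor gene IL22RA2 by 0.17 and IL20RA by -0.13.

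The cytokines of the IL-17 family act on epithelial and stromal cells. Of its measured members, 5 of 5 receptor chains and 4 of 5 ligands were above the silent range. IL17RA and IL17A had no probe set of their own. IL17RD, also known as SEF, a feedback inhibitor of FGF receptor signalling, read 8.26, 8.18 and 8.25 in control and 8.14, 8.20 and 8.28 in treated cells, a difference of -0.02 (95% interval -0.21 to 0.16). IL17RB, a receptor chain for IL-25, read 7.64, 7.39 and 7.56 against 7.26, 7.25 and 7.51, a difference of -0.19 (95% interval -0.46 to 0.08). Treated arrays 1 and 2 were below every control array and treated array 3 was not. IL17RC, a partner chain in the IL-17 receptor, differed by -0.08. IL17D, a ligand expressed in muscle and nervous tissue, read 7.35, 7.36 and 7.26 against 7.57, 7.51 and 7.36. All treated values were above all control values, narrowly so for treated array 3, and the difference was 0.16 (95% interval -0.06 to 0.37). IL17F differed by 0.19 (95% interval -0.09 to 0.48). Of interleukins outside these families, IL32 differed by 0.08, and IL34, a ligand of the CSF1 receptor, by -0.05.

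The signalling genes that act below these receptors showed no called change either. Of 27 measured receptor-proximal and NF-kappaB genes, 25 were above the silent range, 0 passed the adjusted threshold, 0 had an unadjusted p under 0.05 and the median difference was -0.04; TNIP1, an NF-kappaB inhibitor (-0.18), and the kinase gene IRAK1 (-0.14) had the smallest p. Of 20 measured JAK-STAT genes, 0 passed either threshold, the median was -0.02, and IRF9 and PIAS3 differed by -0.11 each. The 18 measured genes of chemokine receptor coupling had a median of -0.02, with the receptor kinase genes GRK6 (-0.16) and GRK5 (-0.11) first by p. The 8 measured genes of cytokine transcript decay all lay above the silent range. Of these, 6 were lower, KHSRP by -0.18, and ZFP36 was higher by 0.16, with 0 past either threshold. Over the same fit the median of all genes was -0.03. For all genes above the silent range it was -0.05, with 30.1% of them higher.

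Chemokine and cytokine genes that the symbol rule leaves out were measured for comparison. Of 11 chemokine genes of this kind, 2 were above the silent range and 0 passed either threshold. CX3CL1, the neuronal chemokine fractalkine, differed by 0.25 (95% interval -0.02 to 0.51) and the platelet chemokine gene PPBP by -0.17. Of 27 cytokine and receptor genes, 18 were above the silent range and 0 passed the adjusted threshold. An unadjusted p under 0.05 was found for 1 of the 27, beside 2.07% of all genes in either direction. It was LTA, lymphotoxin alpha, in the silent range at 4.31 and 4.62 on average, a difference of 0.31 (unadjusted p = 0.00747 in limma). EBI3, a subunit of IL-27, differed by -0.14.

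Single arrays moved many members together. Members in the silent range lay above their own means on treated arrays 1 and 2 (median deviations of 0.07 and 0.06) and below them on treated array 3 (-0.05) and control array 1 (-0.05). All genes in the silent range followed the same signs on these arrays, with medians of 0.03, 0.02, -0.02 and -0.03. Of the 112 members, 32 had their highest value on treated array 1, against 9 to 24 on each of the other arrays. The lowest value fell on treated array 3 for 25 members, against 14 to 22 on each of the others. These counts were not made for all genes. Without treated array 3, 9 members had an unadjusted p under 0.05 instead of 2, beside 3.69% of all genes: IL18, CCR4 (0.51), CCL8 (0.41), CCL25 (0.39), CXCL14, IL1RN and IL23R were higher and IL4R and IL17RB lower, and 0 passed the adjusted threshold. CXCL14 and IL1RN are named because they are in this count. What sets these arrays apart was not tested, and no scan date or batch was given in the sources used here.

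**Figure D4:**
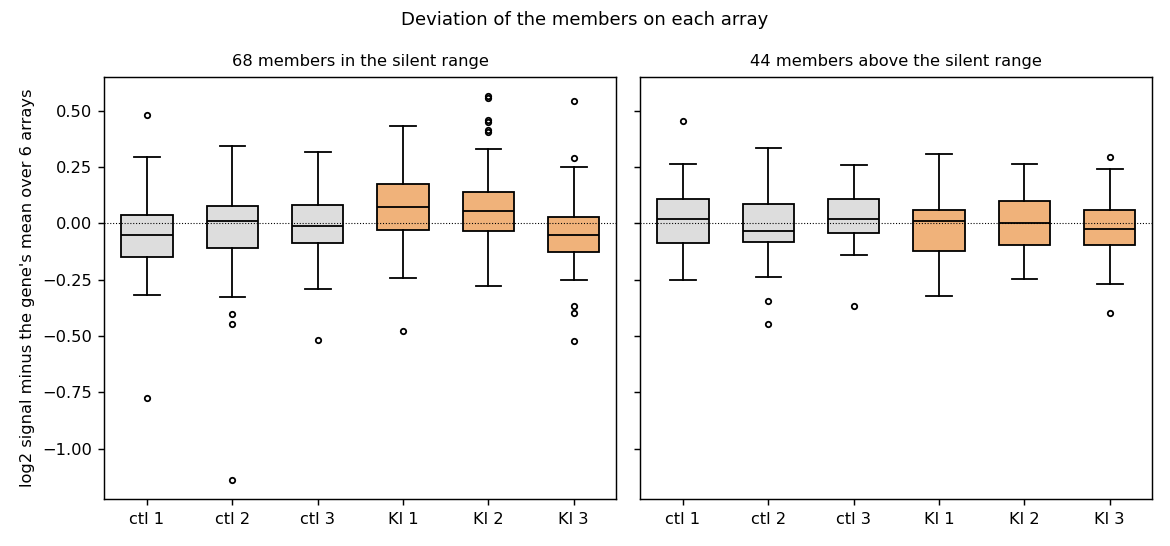
Log2 signal of each member minus its own mean over 6 arrays (y axis) on the 3 control (ctl, grey) and 3 Klotho-treated arrays (Kl, orange), for the 68 members in the silent range (left) and the 44 above it (right); boxes show quartiles, lines medians, whiskers reach to 1.5 times the box height and points lie beyond. On the left, treated arrays 1 and 2 lie highest (medians 0.07 and 0.06) and treated array 3 lowest (-0.05).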

How the data were processed

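The authors deposited log2 values, 1 per probe set and array; RMA is named per the submitters' processing notes, without a version. RMA includes a normalization between arrays, although the deposited medians still ranged from 6.36 to 6.47. Their annotation and filters: not given in the sources used here. Of probe sets, GEO's platform annotation gave 14432 probe sets 1 symbol, 2408 several and 5171 none; no gene was named from several. All 22011 probe sets were fitted with limma 3.58.1 in R 4.3.3 (lmFit, eBayes, 2-sided), p-values were adjusted by Benjamini-Hochberg over the whole table, and 0.05 was the threshold; the fit was tested on simulated data. Arrays carry no read depth, and 3 per group limit the precision; p-values measure the spread between these arrays, which may be technical.

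The members and lists were chosen with earlier results of these data known. Named members are those with an unadjusted p under 0.05 or without overlap, up to 2 of smallest p per role, the 20 of highest mean signal and a fixed panel, 54 in all; list genes are up to 2 of smallest p. Marker genes are named as a check of the label, and CXCL6, CXCL14, IL1RN, IL18BP, CCL1, CCL7, CCL11, CXCR3 and CCR7 outside that rule. Promoters and strands come from RefSeq (GRCh38.p14). All 112 members matched RefSeq by Entrez number, and 89 had a promoter entry.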

Additional observations from a re-analysis of the deposited data

How the results depend on the processing

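Over 17 alternatives, 0 members passed the adjusted threshold in limma (smallest adjusted p 0.643, with array weights), and none of the 54 named members, each read from its kept probe set, changed direction while past an unadjusted p under 0.05. For IL6, the kept brighter probe set was higher at that p in 2 alternatives (median centring, without treated array 1) and the dimmer one lower in 6 (cyclic loess, array weights, the replicate block, without control array 1, without treated array 2, and without control array 1 and treated array 3). The counts at that p, 1 higher and 1 lower as deposited, moved: 3 and 0 with median centring, 2 and 0 with quantile normalization and with cyclic loess, 0 and 1 without probe sets below the lower quartile, 2 and 2 with only the genes' own probe sets fitted, 8 and 2 with array weights, and 5 and 1 when control array 1 and treated array 3 were both left out, an alternative chosen after seeing the data, as was the dimmer IL6 probe set. The share of all genes at that p, in either direction, moved too. It was 2.07% as deposited, 2.26% with median centring, 1.95% with quantile normalization and 2.02% with cyclic loess. Without probe sets below the lower quartile it was 1.82%, and with only the genes' own probe sets 3.08%. It was 5.49% with array weights, 1.26% with the replicate block and 2.9% without control array 1 and treated array 3. With each array left out in turn it ranged from 1.31% to 3.69%. The members' median difference, 0.02, was 0.0646 with median centring. Leaving out each array in turn gave 1 to 7 higher (7 without treated array 3, 3 without control array 3), 0 to 2 lower (0 without control array 1, treated array 1 or treated array 2) and medians from -0.0019 to 0.04. With the replicate number as a block, 1 was higher (IL18) and 0 lower. Same-numbered arrays did not deviate together (correlations of -0.18, 0.06 and -0.14), so the numbers were not taken as pairs. IL18 had an unadjusted p under 0.05 in 15 of 16 alternatives (differences 0.31 to 0.44) and IL4R in 8 of 17. Without detection calls, signal in the silent range cannot be told from background.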
